A study of Mus musculus with 12 samples.

Results

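NF-kB is a family of dimeric transcription factors. In the canonical pathway, ligands such as TNF and IL-1 activate the IKK complex, which releases dimers of p50 (made from *Nfkb1*), RelA and c-Rel from the IkB inhibitors that hold them in the cytoplasm. In the non-canonical pathway, receptors of the TNF family such as CD40 and the lymphotoxin beta receptor stabilise the kinase NIK (*Map3k14*), which leads to the processing of p100 (made from *Nfkb2*) to p52 and the release of its dimers with RelB. Several subunit and inhibitor genes are themselves targets of NF-kB, and in the brain the pathway is best known for inflammatory gene expression in microglia, infiltrating myeloid cells and endothelium.

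The genes described here are the 5 NF-kB subunits and 5 of their inhibitors and nuclear relatives, 10 genes among the 49315 listed in a bulk RNA-sequencing table of mouse brain. They were chosen by symbol: the canonical subunits *Nfkb1*, *Rela* and *Rel*, the non-canonical subunits *Nfkb2* and *Relb*, the cytoplasmic inhibitors *Nfkbia*, *Nfkbib* and *Nfkbie*, and the nuclear IkB proteins *Nfkbiz* and *Bcl3*. The table covers 12 brains taken 14 d post-stroke, 6 from mice given WT bone marrow (BM) cells and 6 from mice given *Tet2*-KO BM cells. All 12 recipients were male CD45.1 (Pep Boy) mice, 8 to 12 weeks old at transplantation, that received head-shielded irradiation and, 8 to 10 weeks later, a 30 min occlusion of the middle cerebral artery. In each group 10% of the transplanted marrow came from CD45.2 donors, WT or *Tet2*-KO, and the other 90% from *Tet2*-sufficient CD45.1 donors, so the resident brain cells and most transplanted cells of both groups carried *Tet2*. The groups follow the sample titles and genotype labels, since the treatment label names control cells in both groups. The labels and the paper call the tissue brain or whole brain, and elsewhere hemispheres, and no sample without stroke was part of the table.

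The libraries held between 12000261 and 21049763 counts, and libraries of the same group differed by more than sampling noise. *Tet2* lay between 126 and 147 counts scaled per library (CPM) in the WT group and between 117 and 137 CPM in the *Tet2*-KO group, and since most cells kept the gene this does not check the labels. Brain markers were high in every mouse, with the summed neuronal markers between 3791 and 6507 CPM. All 10 genes passed the filter on low counts that left 20290 genes for testing. CPM are counts relative to the TMM-scaled library size of edgeR, and a log2 fold change is *Tet2*-KO over WT. The median log2 fold change of all tested genes was 0.010.

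Promoter sequence was taken from RefSeq on GRCm38.p6, as windows of 300 bases that run from 250 bases before a transcription start to 50 bases from it. The table matched 7 of the 10 genes, with 9 windows, and *Nfkb1*, *Relb* and *Nfkbiz* were not among them. Windows were searched on both strands for the kappa-B consensus, a motif of 10 bases that NF-kB dimers bind. The consensus occurred in the windows of 5 of the 7 genes, *Rel*, *Nfkb2*, *Nfkbia*, *Nfkbie* and *Bcl3*, and not in those of *Rela* and *Nfkbib*. Of all 32851 windows 4.51% held it, and of all 27025 genes 5.14%. The stretches below show where the matches lie, with the bases covered by a match on either strand in capitals. Those of *Nfkbie* (chr17:45555450-45555702, plus strand) and *Nfkbia* (chr12:55492648-55492897, minus strand) are shown at length, up to the first exon, because these inhibitor genes both hold a match and had very different fold changes.
Nfkbie: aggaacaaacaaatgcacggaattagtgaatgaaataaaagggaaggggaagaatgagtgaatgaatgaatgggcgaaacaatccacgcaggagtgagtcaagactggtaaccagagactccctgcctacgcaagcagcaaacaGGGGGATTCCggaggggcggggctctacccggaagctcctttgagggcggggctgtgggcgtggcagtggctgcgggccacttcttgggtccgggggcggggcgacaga
Nfkbia: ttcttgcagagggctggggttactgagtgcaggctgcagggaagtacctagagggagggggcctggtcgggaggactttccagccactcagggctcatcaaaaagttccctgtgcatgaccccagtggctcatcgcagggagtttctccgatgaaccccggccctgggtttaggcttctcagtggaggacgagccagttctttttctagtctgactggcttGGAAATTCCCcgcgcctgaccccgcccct

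Matches of the other genes are shown with 9 bases on each side, all but 1 of those in *Nfkb2*. *Nfkb2* had 2 separate matched stretches in its first window (chr19:46304689-46304717 and chr19:46304717-46304744, plus strand). Their matches begin 39 and 11 bases before the RefSeq start of that window, which lies inside the gene model that begins at chr19:46304320. Its other 2 windows share a match (chr19:46305696-46305723). The second window held a further match, not printed, that begins 236 bases before the transcription start of the second window. The match of *Rel* (chr11:23771042-23771070, minus strand) begins 92 bases before the start and reads as the consensus on both strands, and that of *Bcl3* (chr7:19822735-19822762, minus strand) lies just after the start.
Nfkb2 first stretch: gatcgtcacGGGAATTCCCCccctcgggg
Nfkb2 second stretch: gggccgaaaGGGGCTTTCCcggctggag
Nfkb2 shared stretch: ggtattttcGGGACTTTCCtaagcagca
Rel: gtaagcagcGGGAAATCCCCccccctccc
Bcl3: cggcggcagGGGAAGTCCCgctgcccgg
A match describes the letters of these windows only, and no binding was measured in these samples.

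The question put to the 10 genes was whether their transcripts differ between the brains of mice with WT and *Tet2*-KO BM cells after stroke, and whether the canonical and non-canonical subunits differ alike. Most lay lower in the *Tet2*-KO group, with the steepest differences in *Bcl3*, *Nfkbie*, *Nfkb2* and *Relb*, at 45.0% to 56.5% below WT. The canonical subunits were 20.9% to 34.0% below WT. *Nfkbib* was at nearly the same level in both groups.

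None of the 10 genes passed an adjusted p of 0.05 in the quasi-likelihood F test of edgeR, which called 0.0246% of all tested genes. At an unadjusted p below 0.05, 8 of the 10 were lower and none higher, where 12.2% of all tested genes were lower and 10.8% higher. The Wald test of DESeq2, which the study used, called 6 of the 10 at the same adjusted threshold, all lower, where it called 3.71% of its genes lower and 1.12% higher, and these were *Nfkb1*, *Rel*, *Nfkb2*, *Relb*, *Nfkbie* and *Bcl3*. Limma-voom with quality weights called the same 6 genes, where it called 6.38% of genes lower and 2.8% higher. In 2 of the 10, *Relb* and *Nfkbie*, the highest *Tet2*-KO value was under the lowest WT value, which held for 0.641% of tested genes. The edgeR count depended on single mice: 5 genes passed without *Tet2*-KO replicate 5, where 2257 of all 20525 tested genes passed, and 1, *Relb*, passed without WT replicate 6, where 13 of 20547 did.

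**Figure D1:**
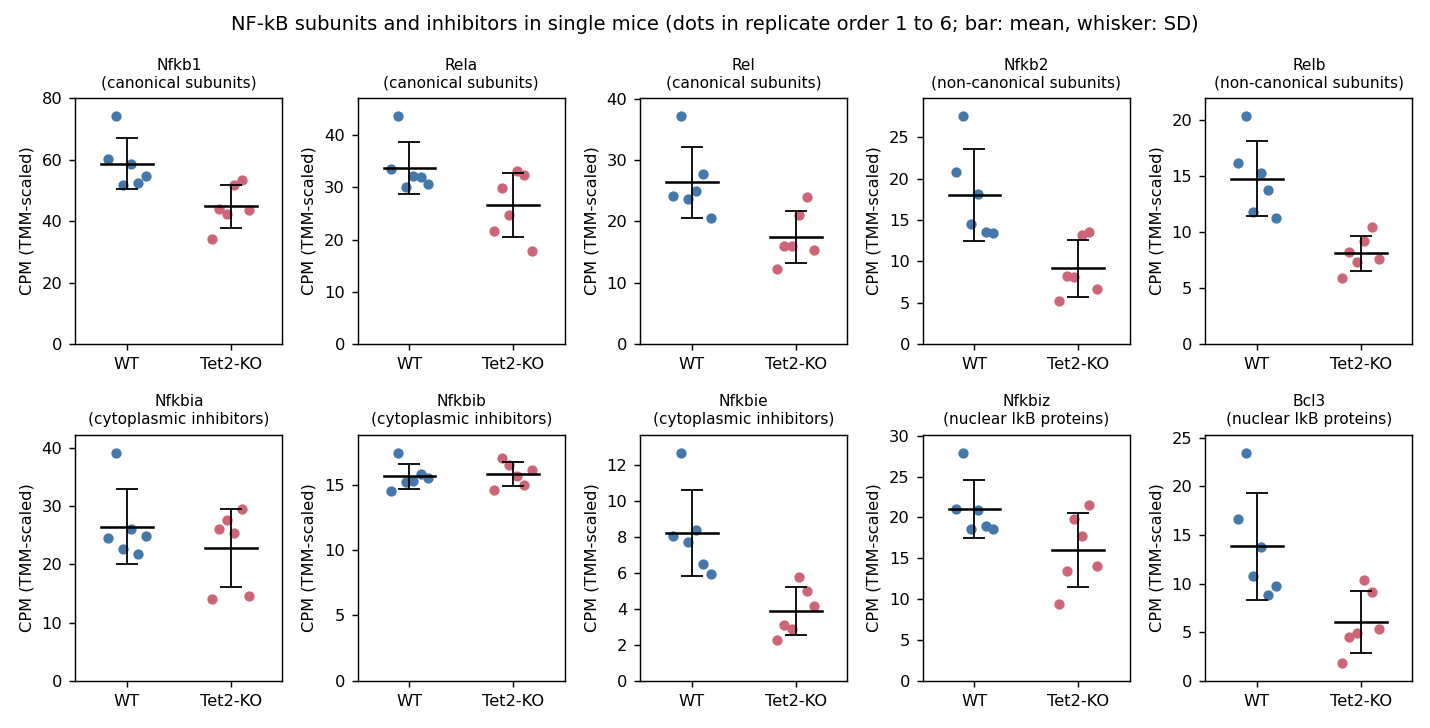
Level of each of the 10 genes (y axis, CPM scaled with TMM, starting at 0) in the 6 WT and 6 *Tet2*-KO mice; dots are single mice in replicate order, the bar is the mean and the whisker the SD. WT replicate 2 was the highest WT mouse in all 10 genes, the groups did not overlap in *Relb* and *Nfkbie*, and they shared one range in *Nfkbib*.

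Among the canonical subunits, *Nfkb1* (ENSMUSG00000028163, chr3:135584655-135691547, minus strand, build mm10) encodes p105, the precursor of p50. It lay between 51.9 and 74.2 CPM with WT BM cells (median 56.8) and between 34.3 and 53.6 CPM with *Tet2*-KO BM cells (median 43.9). The groups touched, since *Tet2*-KO replicate 5 reached the lower end of the WT range while the other 5 mice were below it. The log2 fold change was -0.39 (SE 0.109; edgeR adjusted p = 0.119, DESeq2 adjusted p = 0.0296), and each of the 6 *Tet2*-KO values was under the mean of the WT group.

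*Rela* (ENSMUSG00000024927, chr19:5637483-5648130, plus strand) encodes the transactivating partner of p50 in the classical dimer. Its WT values ran from 30.02 to 43.6 CPM (median 32.1) and its *Tet2*-KO values from 17.8 to 33.1 CPM (median 27.3). *Tet2*-KO replicates 4 and 5 lay inside the WT range, replicate 2 just under it, and replicates 1 and 6 were the lowest. With a log2 fold change of -0.34 (SE 0.147), *Rela* did not pass in edgeR (adjusted p = 0.193) or in DESeq2 (adjusted p = 0.142). Its unadjusted p went above 0.05 without WT replicate 1 or 2 or without *Tet2*-KO replicate 1, 3 or 6.

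*Rel* (ENSMUSG00000020275, chr11:23736847-23770970, minus strand) encodes c-Rel, a subunit best known from lymphocytes and myeloid cells. It lay between 20.6 and 37.2 CPM with WT BM cells (median 24.5) and between 12.2 and 23.9 CPM with *Tet2*-KO BM cells (median 16.1). Here too *Tet2*-KO replicates 4 and 5 overlapped the WT mice and the other 4 did not. In the fit, its log2 fold change was -0.60 (SE 0.169; edgeR adjusted p = 0.121, DESeq2 adjusted p = 0.0192).

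Of the non-canonical subunits, *Nfkb2* (ENSMUSG00000025225, chr19:46304320-46312385, plus strand) encodes p100, which is both the precursor of p52 and an inhibitor of RelB. Values ran from 13.4 to 27.5 CPM in WT mice (median 16.4) and from 5.27 to 13.5 CPM in *Tet2*-KO mice (median 8.14). A single *Tet2*-KO mouse, replicate 5, came level with the 2 lowest WT mice, and the other 5 were below all of them. Its fitted log2 fold change was -0.98 (SE 0.259; edgeR adjusted p = 0.116, DESeq2 adjusted p = 0.0069). The exons of *Nfkb2* share 531 bases with the opposite-strand RNA AC114539.1 and 299 with *Psd*, of 4584 exonic bases, and without a stated counting strand reads there cannot be assigned to one gene.

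*Relb* (ENSMUSG00000002983, chr7:19606217-19629438, minus strand) encodes the partner of p52. It lay between 11.3 and 20.4 CPM with WT BM cells (median 14.5) and between 5.95 and 10.4 CPM with *Tet2*-KO BM cells (median 7.94). The highest *Tet2*-KO mouse, replicate 5, was below the lowest WT mouse, replicate 6. Of the 10 genes it had the smallest p, rank 11 of all tested genes, with a log2 fold change of -0.86 (SE 0.153; edgeR adjusted p = 0.0816, DESeq2 adjusted p = 1.1e-04).

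The cytoplasmic inhibitors did not share one pattern. *Nfkbia* (ENSMUSG00000021025, chr12:55489410-55492647, minus strand) encodes IkB-alpha, the inhibitor that is degraded and resynthesised within a canonical response. Its values ran from 21.8 to 39.1 CPM in WT mice (median 24.6) and from 14.003 to 29.4 CPM in *Tet2*-KO mice (median 25.6). The medians ran opposite to the means. *Tet2*-KO replicates 1 and 6 alone were below the WT range and the other 4 were inside it, and WT replicate 2, at 39.1 CPM, was far above the other WT mice at 21.8 to 26.0 CPM. The log2 fold change was -0.21 (SE 0.212; edgeR adjusted p = 0.586), and its 95% interval, -0.63 to 0.20, leaves room for a decrease like that of the canonical subunits.

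*Nfkbib* (ENSMUSG00000030595, chr7:28758251-28767512, minus strand) encodes IkB-beta, an inhibitor that is resynthesised less quickly. It lay between 14.5 and 17.4 CPM in WT mice (median 15.4) and between 14.6 and 17.1 CPM in *Tet2*-KO mice (median 15.9). The groups covered the same range, with 4 of the 6 *Tet2*-KO values over the mean of the WT group. The log2 fold change of 0.018 (SE 0.065; edgeR adjusted p = 0.901) had a 95% interval of -0.11 to 0.14, the narrowest of the 10 genes. Its exons share 314 of 2169 bases with *Ccer2* and 42 with *Sirt2* on the other strand.

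*Nfkbie* (ENSMUSG00000023947, chr17:45555703-45563169, plus strand), the gene of IkB-epsilon, had the lowest level of the 10 per kilobase of exon in both groups. Its WT values ran from 5.95 to 12.7 CPM (median 7.90) and its *Tet2*-KO values from 2.29 to 5.76 CPM (median 3.63). The 6 *Tet2*-KO values were all under the 6 WT values, with *Tet2*-KO replicate 4 nearest to them. A log2 fold change of -1.09 was fitted (SE 0.230; edgeR adjusted p = 0.110, DESeq2 adjusted p = 0.0016).

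The nuclear IkB proteins act on p50 and p52 dimers at chromatin rather than holding them in the cytoplasm. *Nfkbiz* (ENSMUSG00000035356, chr16:55811375-55838899, minus strand), the gene of IkB-zeta, lay between 18.6 and 27.9 CPM in WT mice (median 19.9) and between 9.36 and 21.5 CPM in *Tet2*-KO mice (median 15.9). *Tet2*-KO replicates 3 and 5 lay inside the WT range and the other 4 were below it. For *Nfkbiz* the log2 fold change was -0.40 (SE 0.178; edgeR adjusted p = 0.207, DESeq2 adjusted p = 0.149). Its unadjusted p went above 0.05 without WT replicate 1, 2 or 4 or without *Tet2*-KO replicate 1, 2 or 6.

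*Bcl3* (ENSMUSG00000053175, chr7:19808462-19822770, minus strand), which encodes a coactivator of p50 and p52 homodimers, spread most among the mice relative to its mean. It lay between 8.82 and 23.5 CPM with WT BM cells (median 12.3) and between 1.86 and 10.4 CPM with *Tet2*-KO BM cells (median 5.14). *Tet2*-KO replicate 1 was far below every other mouse, and *Tet2*-KO replicates 4 and 5 overlapped the lower WT mice. The log2 fold change was -1.20 (SE 0.375; edgeR adjusted p = 0.128, DESeq2 adjusted p = 0.0487), the largest of the 10 and the one with the largest error. An antisense gene, Gm16175, shares 161 of its 2475 exonic bases.

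**Figure D2:**
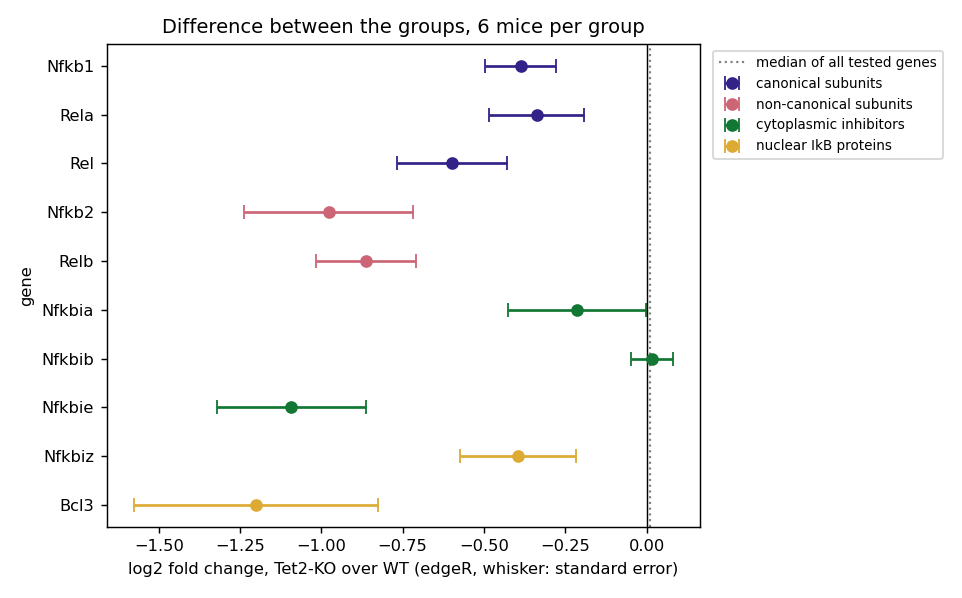
Log2 fold change of the 10 genes (x axis, *Tet2*-KO over WT, edgeR, 6 mice per group); points are estimates, whiskers are standard errors, and colours give the role of the gene. The non-canonical subunits at -0.98 and -0.86, *Nfkbie* at -1.09 and *Bcl3* at -1.20 lie left of the canonical subunits at -0.60 to -0.34, and *Nfkbib* lies at 0.018.

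The canonical and non-canonical subunits were next set against each other within each mouse, which cancels a factor that scales both genes equally. A change in the mix of cells need not scale both equally, and its part in the ratios was not tested. All 3 ratios of a non-canonical to a canonical subunit were lower in the *Tet2*-KO group. Each was tested by an exact two-sided permutation test over the 924 assignments of the mice, whose smallest possible p is 0.0022, with Benjamini-Hochberg adjustment over the 3 ratios. The fold changes of *Nfkb1* and *Nfkb2* were known when the ratios were chosen, so these tests are not independent evidence of the direction.

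The log2 ratio of *Nfkb2* to *Nfkb1*, the p100 gene against the p105 gene, lay between -2.02 and -1.43 in WT mice and between -2.70 and -1.96 in *Tet2*-KO mice. *Tet2*-KO replicates 4 and 5 lay above the lowest WT mouse, and the other 4 were below all WT mice. The means were -1.74 ± 0.235 (WT) and -2.35 ± 0.323 (*Tet2*-KO; SD, n = 6 per group), a difference of -0.61 (exact permutation p = 0.0087, adjusted p = 0.0130), and each *Tet2*-KO value was under the mean of the WT group.

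For *Relb* to *Rela*, the log2 ratio lay between -1.44 and -1.04 in WT mice and between -1.84 and -1.22 in *Tet2*-KO mice. A single *Tet2*-KO mouse, replicate 6, reached the WT range, and it was also the mouse with the least *Rela*. The difference of the means was -0.48 (exact permutation p = 0.0065, adjusted p = 0.0130).

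For *Relb* to *Rel*, the log2 ratio lay between -1.003 and -0.57 in WT mice and between -1.19 and -0.95 in *Tet2*-KO mice. The groups overlapped at *Tet2*-KO replicates 2 and 6, and the difference of -0.24 was the smallest of the 3 (exact permutation p = 0.0152, adjusted p = 0.0152). All 3 ratios stayed below 0.05 when any 1 mouse was left out, with p between 0.0022 and 0.0281. Averaged over the subunits of each pathway, the mean log2 CPM of *Nfkb2* and *Relb* minus that of *Nfkb1*, *Rela* and *Rel* was -1.21 ± 0.183 in WT mice and -1.68 ± 0.122 in *Tet2*-KO mice (SD, n = 6 per group). The ranges, -1.40 to -0.99 and -1.87 to -1.53, did not overlap.

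**Figure D3:**
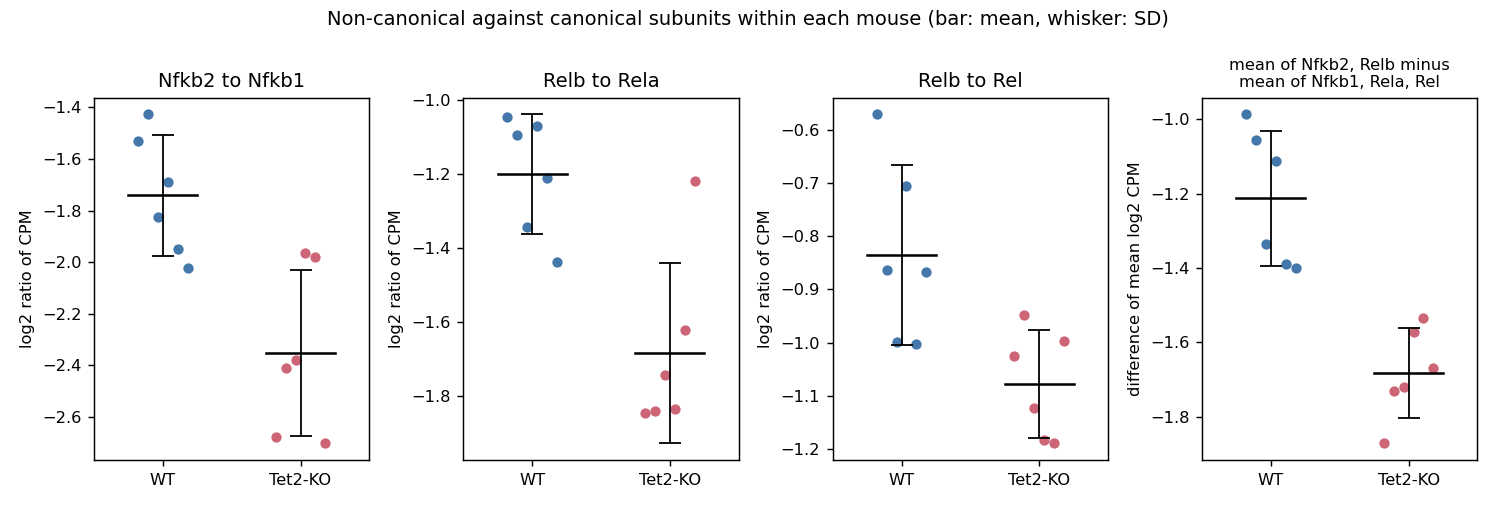
Log2 ratio of CPM of a non-canonical to a canonical subunit within each mouse (3 panels on the left) and the difference of the mean log2 CPM of both subunit groups (right), with the mean as bar and the SD as whisker; the y axes do not start at 0. The *Tet2*-KO mice lie lower in each panel, with overlap in the ratios and none in the difference of the means.

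Compared per kilobase of exon, the scale on which genes can be set against each other, the order of the WT means began with *Nfkbia* at 16.4 ± 3.96 CPM per kb, *Rela* at 10.96 ± 1.63 and *Nfkbib* at 7.20 ± 0.453 (SD, n = 6). *Bcl3* followed at 5.601 ± 2.22, *Nfkb1* at 4.87 ± 0.687, *Nfkbiz* at 4.18 ± 0.708, *Nfkb2* at 3.93 ± 1.203, *Relb* at 3.80 ± 0.860, *Rel* at 3.53 ± 0.771 and *Nfkbie* at 2.70 ± 0.782 CPM per kb. Neighbours in this order overlapped between mice except *Rela* and *Nfkbib*. In *Tet2*-KO mice the first 3 places were the same, and *Bcl3*, at 2.44 ± 1.28 CPM per kb, came after *Nfkb1* at 3.73 ± 0.582 and *Nfkbiz* at 3.19 ± 0.901. There the neighbours that did not overlap were *Nfkbib* and *Nfkb1*. The lengths are merged exons of all annotated transcripts, which understates the level of a gene with long minor transcripts, and *Nfkb1* had the longest, 12061 bases.

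The other genes of the pathways were taken from lists written with the pathways in mind and with earlier results of these data known. Their counts at an unadjusted p below 0.05 stand beside 12.2% of all tested genes lower and 10.8% higher. Of the canonical signalling genes, which comprise receptors, adaptors, the IKK complex and the ubiquitin machinery between them, 13 of 27 tested were lower at an unadjusted p below 0.05 and none was higher, with a median log2 fold change of -0.21. The 6 with the smallest p were *Myd88*, the adaptor of Toll-like and IL-1 receptors (-0.81), *Irak4*, its kinase (-0.65), the IL-1 receptor *Il1r1* (-0.71), the IKK subunit *Ikbkb* (-0.18), the adaptor *Traf5* (-0.49) and the protease *Malt1* (-0.35). *Ikbkb*, at 60.6 ± 4.24 CPM in WT and 53.5 ± 3.27 CPM in *Tet2*-KO mice (SD, n = 6 per group), did not overlap between the groups although its difference was small.

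Of the non-canonical signalling genes 9 of 12 tested were lower and none was higher, with a median of -0.53, and 5 further genes of that list, *Tnfrsf13c*, *Lta*, *Tnfsf11*, *Tnfsf14* and *Cd40lg*, were too low to be tested. The receptor *Cd40* had the smallest p (log2 fold change -1.26, edgeR adjusted p = 0.104, DESeq2 adjusted p = 0.0021). Its mean was 2.30 ± 0.447 CPM in WT mice and 0.971 ± 0.466 CPM in *Tet2*-KO mice (SD, n = 6 per group), without overlap. Lymphotoxin beta (*Ltb*, -1.41), the ubiquitin ligase *Birc3* (-1.13), the TNF receptor *Tnfrsf1b* (-1.24), the RANK gene *Tnfrsf11a* (-0.62) and the kinase gene *Map3k14* (-0.33) followed in order of p. Of these, *Ltb* averaged only 0.722 CPM in *Tet2*-KO mice, with 68 counts in total.

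Of the negative regulators 5 of 16 tested were lower and 2 were higher at the unadjusted threshold, with a median of -0.12, and the share of higher genes was near that of all tested genes, 10.8%. *Nfkbid*, a nuclear IkB protein (-0.61), *Zc3h12a*, the RNase regnase-1 (-0.79), *Tnip1* (-0.22), the A20 gene *Tnfaip3* (-0.58) and *Irak3* (-0.66) were lower, and *Rnf11*, a cofactor of A20, was higher (0.20). The other higher gene was *Tollip* (0.095), which is named because its value was seen. Of 35 genes commonly described as NF-kB targets 27 could be tested and the rest were too low. Of the 27 tested 22 were lower and none was higher, with a median of -1.10. Among these, *Il1b* passed the adjusted threshold (-2.94, edgeR adjusted p = 0.0364), and *Cxcl1* (-2.66), *Gadd45b* (-0.70), *Traf1* (-1.36), *Irf1* (-0.78) and *Mmp9* (-0.95) came next. *Il1b* and *Cxcl1* averaged only 0.699 and 0.275 CPM in *Tet2*-KO mice, with 64 and 27 counts in total, so the size of their fold changes is imprecise. In the same test 0 of 27, 0 of 12 and 0 of 16 genes of the canonical, non-canonical and negative regulator lists and 1 of 27 targets passed the adjusted threshold, against 3, 4, 3 and 15 in DESeq2 and 7, 5, 3 and 17 in limma-voom. Over all genes DESeq2 called 3.71% lower and 1.12% higher, and limma-voom 6.38% lower and 2.8% higher.

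**Figure D4:**
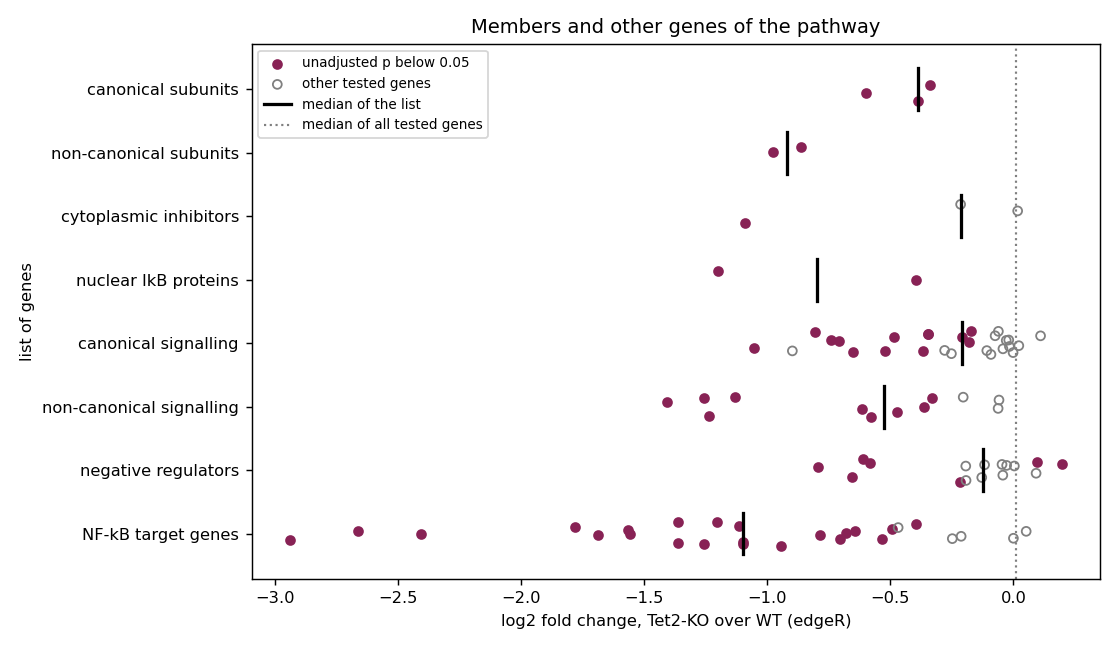
Log2 fold change (x axis, *Tet2*-KO over WT, edgeR) of the tested genes in each list (rows), filled where the unadjusted p was below 0.05; black bars are the medians of the lists and the dotted line the median of all tested genes, 0.010. The targets, at a median of -1.10, and the non-canonical signalling genes, at -0.53, extend farther left than the canonical signalling genes at -0.21.

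Markers of several cell types moved with the same mice, and in bulk tissue fewer cells of a type and less RNA per cell cannot be told apart. At the same time after stroke, the paper counted macrophages and T cells in stained brain sections and reported similar numbers in both groups. Those cell counts were not matched to the sequenced mice here. The marker counts below are to be read against the 12.2% of all tested genes that were lower and the 10.8% that were higher. The activated phagocyte markers were lower at an unadjusted p below 0.05 in 8 of 10 genes, and summed to between 3198 and 7633 CPM in WT mice and between 755 and 3984 CPM in *Tet2*-KO mice. Monocyte markers were lower in 5 of 6 tested (425 to 865 against 155 to 520 CPM) and fibroblast markers in 6 of 6 (581 to 1313 against 147 to 735 CPM). The phagocyte sum was largely *Apoe*, which averaged 2637 CPM in WT mice, with *Spp1* next at 519 CPM. The monocyte sum was mostly *Fn1*, at 474 CPM in WT mice, where *Ccr2* averaged 15.1 and *Ly6c2* 9.34 CPM. These 2 sums therefore mainly follow *Apoe* and *Fn1* and are not measures of cell number. The homeostatic microglial markers were lower in 1 of 8, between 644 and 1162 CPM in WT and between 319 and 841 CPM in *Tet2*-KO mice. T cell markers were lower in 5 of 6 tested (17.8 to 26.6 against 10.9 to 17.1 CPM) and B cell markers in 3 of 4 tested (39.3 to 51.1 against 30.6 to 36.9 CPM). Of 10 neutrophil markers 4 could be tested and were lower, while the defining *Ly6g* had 2 counts over the 6 WT mice and 0 over the 6 *Tet2*-KO mice. Of these 4, *S100a9* and *Cxcr2* averaged only 0.305 and 0.493 CPM in *Tet2*-KO mice. The untested *Mpo*, *Ngp*, *Retnlg* and *Camp* averaged 0.302, 0.741, 0.576 and 0.208 CPM in WT mice. In *Tet2*-KO mice they averaged 0.304, 0.579, 0.509 and 0.158 CPM, and *Elane* had 2 counts in each group. The neutrophil markers thus did not all fall.

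Endothelial markers were lower in 2 of 6 (241 to 292 against 225 to 271 CPM), choroid plexus markers in 1 of 5 (502 to 663 against 406 to 694 CPM) and oligodendrocyte markers in 0 of 6 (4822 to 6315 against 4479 to 6262 CPM). Of the astrocyte markers 1 of 6 was higher (5842 to 6882 against 5644 to 7036 CPM), of the neuronal markers 8 of 8 (3791 to 5383 against 4958 to 6507 CPM) and of the red blood cell markers 3 of 5 tested (21.8 to 31.6 against 27.7 to 42.0 CPM). *Tet2*-KO replicates 1 and 6, which had the lowest phagocyte and fibroblast sums, were also the lowest 2 mice in *Rela*, *Rel*, *Nfkb2* and *Nfkbia*. In *Nfkb1*, *Relb*, *Nfkbie*, *Nfkbiz* and *Bcl3* replicate 1 was the lowest mouse but replicate 2 or 3 came next, and in *Nfkbib* WT replicate 1 was the lowest. WT replicate 2, with the highest phagocyte and fibroblast sums, was the highest WT mouse in all 10 genes. *Tet2*-KO replicate 5 differed, since its phagocyte, monocyte and fibroblast sums lay inside the WT range while its *Relb* and *Nfkbie* were under every WT mouse. The T cell and B cell sums of this mouse, 17.1 and 36.9 CPM, were also under every WT mouse. The part of these cell types in the lower NF-kB transcripts was not tested.

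**Figure D5:**
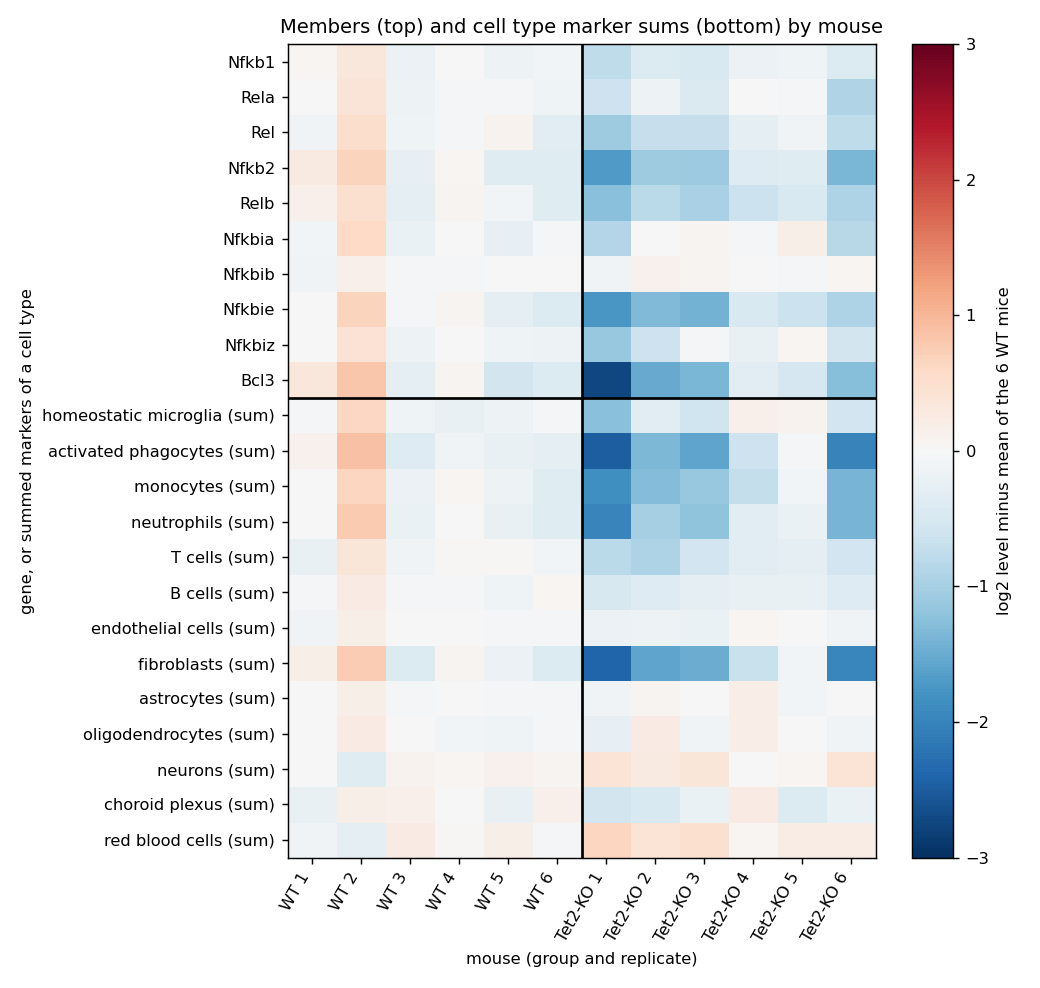
Log2 level of each of the 10 genes (top rows) and of the summed markers of each cell type (bottom rows) in each mouse (columns), as the difference from the mean of the 6 WT mice; blue is lower and red higher, and colours are capped at 3. *Nfkb2*, *Nfkbie* and *Bcl3* are darkest in *Tet2*-KO replicate 1, as are the phagocyte, monocyte and fibroblast sums. In *Tet2*-KO replicate 5 these sums lie at -0.08 to -0.07, while *Nfkb2* is at -0.36, *Nfkbie* at -0.66 and *Bcl3* at -0.50. The T cell and B cell sums of that mouse lie at -0.28 and -0.22. *Nfkbib* stays near the WT mean throughout.

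The genes whose levels followed each subunit most closely were taken from all tested genes after the group means had been removed, by Pearson's r of log2 CPM over the 12 mice. They were picked as the highest among all tested genes, so no p is given. Closest to *Nfkb1* were *Slc44a2*, *Bach1* and *Selplg*, each with r = 0.98. *Rela* was nearest to *Fzd7*, *Plod3* and *Gna12* (r = 0.96 each), and *Rel* to *Rps6*, *Slc16a10* and *Gmip* (r = 0.97 to 0.98). *Nfkb2* was nearest to *Gatad2a*, *Btg1* and *Fam129a* (r = 0.98 to 0.99), and *Relb* to *Traf1*, *Skap2* and *Lhfpl2* (r = 0.97 each). Spearman's rho was between 0.94 and 0.99 for these 15 pairs, and without the 2 mice farthest from the median of the subunit Pearson's r was between 0.93 and 0.99. The 5 subunits shared none of these nearest genes.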

How the data were processed

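Total brain RNA was depleted of ribosomal RNA and sequenced as paired reads. Per the submitters' processing notes, Trimmomatic 0.36, STAR 2.5.2b, featureCounts of Subread 1.5.2 and the build mm10 were used. The authors deposited whole-number read counts per gene, from uniquely mapped reads in exons, without normalization. The strand used in counting is not given in the sources used here. Replicates are separate mice.

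Counts were filtered with filterByExpr, scaled with TMM and tested with the robust quasi-likelihood F test of edgeR 4.0.16 in R 4.3.3 over all 12 mice without covariates, with Benjamini-Hochberg adjustment over 20290 genes. A standard error here is the size of a log2 fold change over the root of its F statistic. DESeq2 1.42.0 and limma 3.58.1 were alternatives, as were other scalings, filters and pseudocounts, a replicate block and each mouse left out. Ratios used a pseudocount of 0.1 CPM and log2 CPM a prior count of 2. The edgeR, DESeq2 and limma-voom fits were also run on simulated counts with known changes. Gene models are those of GENCODE M21. The total counts limit the precision: single members had between 30 and 1035 counts per mouse, and the negative binomial model includes this counting error.

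The members, the lists and the tests were chosen with earlier results of these data known. Named are all members and up to 6 genes with the smallest p below 0.05 in each pathway list. The 3 nearest genes of each subunit and defining markers are named too. The 5 untested ligands and receptors, *Tollip*, *Tet2* and further neutrophil markers were named besides.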

Additional observations from a re-analysis of the deposited data

Results flagged for a closer look

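Within each group of 6 mice, the highest and lowest value of each of the 10 genes and 3 ratios was compared with the rest, over 26 groups, by the gap to the nearest mouse relative to the whole range. Chance alone singles out about 1 in 20 such groups. WT replicate 2 stood above the other WT mice in 4 genes. It was at 43.6 CPM in *Rela*, where the others lay between 30.02 and 33.5, and at 39.1 CPM in *Nfkbia*, where they lay between 21.8 and 26.0. In *Nfkbie* it was at 12.7 CPM against 5.95 to 8.43, and in *Nfkbiz* at 27.9 CPM against 18.6 to 20.98. This mouse also had the highest summed markers of activated phagocytes in its group, 7633 CPM. *Tet2*-KO replicate 6 stood above its group in the log2 ratio of *Relb* to *Rela*, at -1.22 where the others lay between -1.84 and -1.62. The cause of these gaps was not tested.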

How the results depend on the processing

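Directions held under every alternative run for all genes but *Nfkbib*, whose log2 fold change, 0.018, lay between -0.0054 (*Tet2*-KO replicate 2 left out) and 0.071 (limma-voom), was -0.0024 with WT replicate 1 left out and 0.066 without WT replicate 2 and *Tet2*-KO replicate 5. Against 0 of 10 genes past the adjusted threshold in edgeR, 6 passed in DESeq2, 6 in limma-voom, 1 without a filter on low counts and 0 to 5 when each mouse was left out. Over all tested genes the 5 calls became 917 in DESeq2, 1863 in limma-voom, 44 without a filter, 0 with at least 10 counts in every library and 0 to 2257 when each mouse was left out, the last without *Tet2*-KO replicate 5. Leaving out 1 mouse gave 6 to 8 genes below an unadjusted p of 0.05 and 2 to 4 genes without overlap, 4 without *Tet2*-KO replicate 5. Leaving out both WT replicate 2 and *Tet2*-KO replicate 5 was added after seeing the data; both were picked by their values, and removing the *Tet2*-KO mouse nearest to WT favours larger differences, so it supports nothing. It gave 5 genes past the adjusted threshold, 1554 over all genes, 4 without overlap, and -0.23 for *Relb* to *Rel* (exact permutation p = 0.0556), which was -0.28 to -0.19 with single mice left out. The cause of these changes was not tested.

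Mice of the same replicate number gave no sign of deviating together (correlations from -0.17 to 0.23, over 0.1 in 1 of 6 pairs, and 2 of 6 *Tet2*-KO mice nearest to their own number). Over 6 pairs this cannot exclude that the numbers pair the mice. With a replicate block edgeR called 0 genes of all tested, and 7 of the 10 had an unadjusted p below 0.05. *Relb* to *Rela* kept its difference of -0.48 with a sign-flip exact permutation p of 0.0625. The other 2 ratios, *Nfkb2* to *Nfkb1* and *Relb* to *Rel*, each had a sign-flip exact permutation p of 0.0313, the smallest that 6 pairs allow.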
